A study of Rattus norvegicus with 6 samples.

Results

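Tetherin, the IFITM proteins and SAMHD1 are restriction factors, proteins with which a cell hinders a virus at one step of its life cycle. The 9 genes described here were chosen by name, as the rows of the gene table for Bst2 (tetherin), Ifitm1, Ifitm2, Ifitm3, Samhd1, Isg20, Sp110, Pml and Zc3hav1. All 9 were among the 40154 genes of the table, and all 9 passed the filter on low counts, which kept 14852 genes. The libraries were made from polyadenylated RNA of atrial fibroblasts of Sprague-Dawley rats aged 1 to 3 days, transfected with the control siRNA si-NC or with si-GPD1L, which is directed at Gpd1l, and collected after 24 h. Each group had 3 libraries, and no untransfected cells were in the series. All samples carried the same treatment label, "Atrial differentiation". The fibroblasts had been separated from atrial myocytes by their faster attachment to the dish. The labels do not say whether the libraries of a group came from separate cultures or animals, or whether the digit in a si-GPD1L name counts replicates or different siRNAs, so the p-values measure the spread between these libraries, which may be technical.

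Many restriction factors are interferon-stimulated genes, which cells keep at a low or moderate level and raise when type I interferon binds its receptor. The receptor acts through a complex that includes STAT2 and IRF9 and binds the interferon-stimulated response element (ISRE) in the promoters of such genes. The genes here act at different steps. Tetherin holds budding particles of enveloped viruses on the cell surface, and the IFITM proteins sit in cell membranes and hinder the fusion of a virus with the cell. SAMHD1 breaks down the deoxynucleotides needed for reverse transcription, ISG20 is an exonuclease that degrades RNA, and ZAP, the protein of Zc3hav1, binds viral RNA rich in CpG and directs it to decay. PML is the scaffold of the PML nuclear bodies, and SP110 belongs to the SP100 family of nuclear body proteins.

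The libraries held 16892255 to 20149732 gene counts. Collagen I, the main fibroblast collagen, was abundant, and the share of Col1a1 in the gene counts was 3.39% to 4.56% for si-NC and 4.86% to 4.99% for si-GPD1L. All 12 fibroblast markers examined passed the filter. All 12 cardiomyocyte markers and all 10 of smooth muscle and pericytes passed as well, so passing does not set the cell types apart. Library si-NC replicate 1 stood apart from the other libraries of its group, since the chi-square statistic over genes, divided by its degrees of freedom, was 19.7 and 27.4 against si-NC replicates 2 and 3, compared with 8.35 between those 2 and 3.89 to 5.81 within si-GPD1L. It also had the lowest Col1a1 share, 3.39%. Gpd1l itself, the targeted gene, had normalized counts of 262.0, 332.2 and 313.3 in si-NC and 220.2, 208.1 and 302.4 in si-GPD1L, where a normalized count is a count scaled to the mean library size. The groups overlapped, since the library labelled si-GPD1L replicate 3 lay above the lowest si-NC library. The log2 fold change was -0.31 ± 0.15 (standard error (SE); edgeR quasi-likelihood test, Benjamini-Hochberg adjusted p = 0.234), and an exact two-sided permutation test gave p = 0.2, with 0.1 as the lowest value possible for groups of 3. Differences below are therefore between the libraries labelled si-GPD1L and si-NC, and the response to the siRNA itself and the response to a lower Gpd1l level cannot be told apart.

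The promoters of the 9 genes were read from RefSeq (build GRCr8, which is not the build of the counts). They cover the 250 bases before and 50 after the start given there. Of the 9 genes, 8 had an entry and Ifitm1 had none. The ISRE core was searched as GAAANNGAA on both strands. It was in 6 of these 8 promoters and in 9.71% of the 33469 promoters of the same length in the table. The stretches that hold it are printed because an ISRE is the element through which interferon-stimulated genes are known to be induced. Capitals mark the core, and each stretch reads 5′ to 3′ along the gene.
Bst2 (chr16:18255059-18255123, minus strand): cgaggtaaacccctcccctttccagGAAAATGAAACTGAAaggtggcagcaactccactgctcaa
Ifitm2 (chr1:205482349-205482406, minus strand): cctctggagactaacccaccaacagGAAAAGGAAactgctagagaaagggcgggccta
Ifitm3 (chr1:205541769-205541827, minus strand): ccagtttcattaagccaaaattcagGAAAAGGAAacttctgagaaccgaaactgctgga
Isg20 (chr1:142239942-142240000, plus strand): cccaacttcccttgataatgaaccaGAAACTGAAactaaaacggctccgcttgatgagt
Sp110 (chr9:93670683-93670741, minus strand): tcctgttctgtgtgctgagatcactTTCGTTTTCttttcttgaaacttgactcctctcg
Pml (chr8:67554857-67554886, minus strand): acccaatccaGAAATCGAAACTGAAccagg

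The cores began 131 and 125 bases before the start in Bst2, where they overlap, and 33, 44, 92 and 57 bases before it in Ifitm2, Ifitm3, Isg20 and Sp110. In Sp110 the core lies on the opposite strand and therefore reads TTC at its left end. In Pml both cores, which overlap, lie 12 and 18 bases after the start in the RefSeq table, which is not the outermost start of the gene. Ifitm2 and Ifitm3 carry the same 9 letters, GAAAAGGAA. So does the promoter of Ifitm7, a relative outside the 9 genes that had 0 counts in all 6 libraries, 98 bases before its start. The interferon-gamma element GAS, searched as TTCNNNGAA on both strands, was in Bst2, Ifitm3 and Samhd1, against 8.87% of all promoters, and in Bst2 it overlaps the first ISRE core. The promoters of Samhd1 and Zc3hav1 had no ISRE core in the window.

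Of the 9 genes, 7 rose in si-GPD1L, 1 fell and 1 was not called at an adjusted p under 0.05. The genes that rose were Bst2, Sp110, Isg20, Pml, Samhd1, Zc3hav1 and Ifitm3, in falling order of fold change. Ifitm1 fell, and Ifitm2 did not pass the test. Among all 14852 genes tested, 6.36% were called, 4.03% as higher and 2.33% as lower. When the log2 fold change also had to exceed 1 in size, 5 of the 9 genes were called, all higher (Bst2, Sp110, Isg20, Pml and Samhd1), against 1.48% of all genes called higher and 0.135% called lower. In 8 of the 9 genes the libraries of the groups did not overlap, against 29% of all genes tested. The median log2 fold change was 1.19 over the 9 genes and -0.0049 over all genes tested. The 9 genes were chosen with earlier results of these data known, so the shares of all genes are given for description only. Since these are bulk samples, a different number of expressing cells and a different amount of RNA per cell cannot be told apart.

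**Figure D1:**
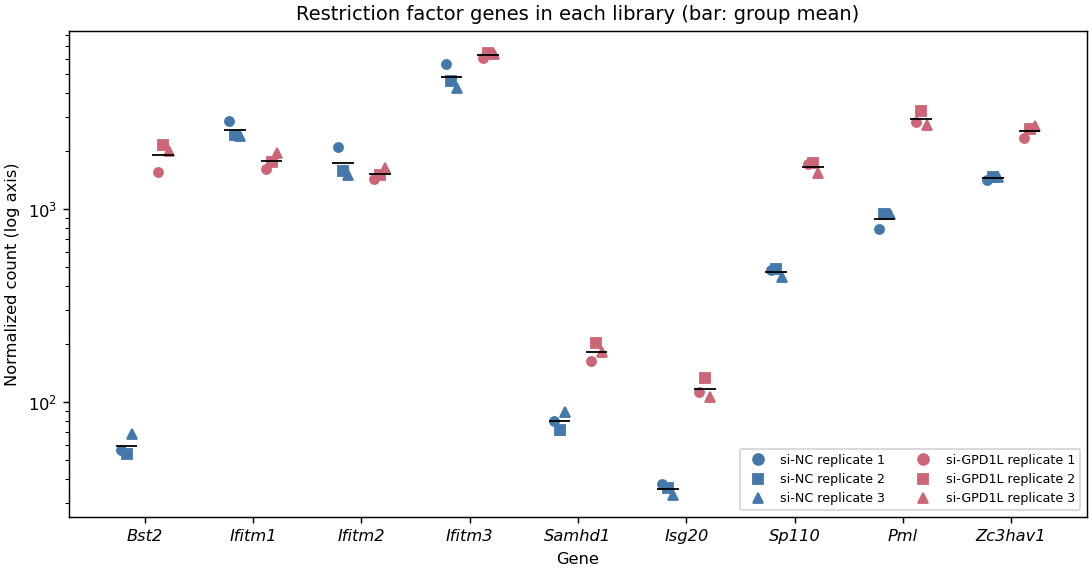
Normalized counts (log axis) of the 9 genes in each of the 6 libraries, with si-NC in blue, si-GPD1L in red, a marker shape for each replicate number and a bar at the group mean. The groups are separate in every gene except Ifitm2. The si-GPD1L libraries lie lower than si-NC in Ifitm1 and higher in the other 7 separate genes.

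Bst2, the gene of tetherin (NCBI gene 378947, chr16:19938781-19942353, minus strand, in the coordinates of the gene table), differed most between the groups. Its normalized counts were 56.4, 54.0 and 68.3 in si-NC and 1564.5, 2150.3 and 1993.2 in si-GPD1L. Every si-GPD1L library lay far above every si-NC library, and the means were 59.5 ± 7.69 and 1903 ± 303 (SD, n = 3). The fold change was 31.8 (95% confidence interval 25.6 to 39.7), which is 4.99 ± 0.15 (SE) on the log2 scale (adjusted p = 1.78e-10). Of all genes tested, 99.8% had a lower log2 fold change. Tetherin is removed from the cell surface by ubiquitin ligases and endosomal sorting. A list of 8 genes was drawn up for such turnover (Marchf8, Btrc, Stx4, Rabgef1 and relatives), and whether each acts on tetherin in these cells was not examined. Of the list, 6 were tested and none was called in either direction by edgeR's quasi-likelihood test, with a median log2 fold change of -0.12. At an unadjusted p under 0.05, and by DESeq2 or edgeR's exact test after adjustment, the count was also 0.

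The IFITM genes did not move together. Ifitm1, whose protein acts mainly at the cell surface (NCBI gene 293618, chr1:213765825-213767841, plus strand), had normalized counts of 2873.9, 2430.4 and 2384.2 in si-NC and 1625.6, 1756.7 and 1947.3 in si-GPD1L. All si-GPD1L libraries lay below all si-NC libraries. Its means were 2563 ± 270 and 1777 ± 162 (SD, n = 3), and the log2 fold change was -0.53 ± 0.091 (SE, adjusted p = 0.00413). Ifitm3, whose protein acts in endosomes against incoming viruses such as influenza (NCBI gene 361673, chr1:213810712-213811821, minus strand), had normalized counts of 5690.5, 4634.3 and 4249.2 in si-NC and 6044.3, 6426.3 and 6340.9 in si-GPD1L. The groups did not overlap, although si-NC replicate 1 came close to the lowest si-GPD1L library. The log2 fold change of Ifitm3 was 0.37 ± 0.099 (SE), a fold change of 1.29 (95% confidence interval 1.11 to 1.50), with an adjusted p of 0.0463. That call depended on single libraries. Without si-NC replicate 1 the adjusted p was 5.91e-06, and it was 0.0759 to 0.202 when any other library was left out (0.146 and 0.0759 without si-NC replicates 2 and 3, and 0.136, 0.202 and 0.139 without si-GPD1L replicates 1, 2 and 3).

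Ifitm2 (NCBI gene 114709, chr1:213750219-213751399, minus strand), another endosomal IFITM, had normalized counts of 2089.9, 1578.6 and 1512.7 in si-NC and 1436.9, 1501.4 and 1636.9 in si-GPD1L. The groups overlapped. Its log2 fold change was -0.18 (95% confidence interval -0.42 to 0.061, adjusted p = 0.367), and -0.019 without si-NC replicate 1. That library was the highest of si-NC for Ifitm1, Ifitm2 and Ifitm3 alike, and without it the log2 fold changes of Ifitm1 and Ifitm3 were -0.44 and 0.50. Reads shared by such closely related genes may be assigned to either or to none, and how they were counted is not given in the sources used here, so the values of single IFITM genes are uncertain to that extent. Ifitm2 also overlaps a long noncoding RNA on the opposite strand, LOC108349669, which had 2 to 11 counts in a library, and without knowledge of the strand setting their reads cannot be told apart where they overlap.

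The table held 4 further IFITM genes, of which 2 passed the filter and none was called by edgeR's quasi-likelihood test. By an unadjusted p under 0.05 and by edgeR's exact test 1 was called, Ifitm10, and by DESeq2 0. Ifitm5, described as the bone-restricted member, lies 340 bases from Ifitm2 and had a log2 fold change of -0.18 (adjusted p = 0.588). Its normalized counts were 91.7 ± 12.7 in si-NC and 81.0 ± 9.58 in si-GPD1L (SD, n = 3). Whether these reads came from Ifitm5 itself was not tested. Ifitm10 had normalized counts of 21.8 ± 8.14 in si-NC and 40.2 ± 5.99 in si-GPD1L (SD, n = 3), with groups that did not overlap and an adjusted p of 0.109. Ifitm6 did not exceed 7 counts in a library, and Ifitm7 had 0 in all 6, where a count of 0 allows up to 3.

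On the length-corrected scale of the deposited TPM values (transcript abundance corrected for length and scaled to a common total), the balance within the family differed between the groups. Ifitm3 made up 57.1%, 57.5% and 56.0% of the summed TPM of Ifitm1, Ifitm2 and Ifitm3 in si-NC, against 69.4%, 69.5% and 67.1% in si-GPD1L. The ratio of Ifitm3 to Ifitm1 TPM was 2.51, 2.42 and 2.26 in si-NC and 4.71, 4.63 and 4.12 in si-GPD1L. This ratio is taken within a library and varied little inside a group, and the groups were separate, by 0.91 on the log2 scale. An exact two-sided permutation test gave p = 0.1, the smallest it allows here, and so cannot pass 0.05. The summed TPM of the 3 genes was 1801 ± 174 in si-NC and 2051 ± 96.9 in si-GPD1L (SD, n = 3), with overlapping groups.

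**Figure D2:**
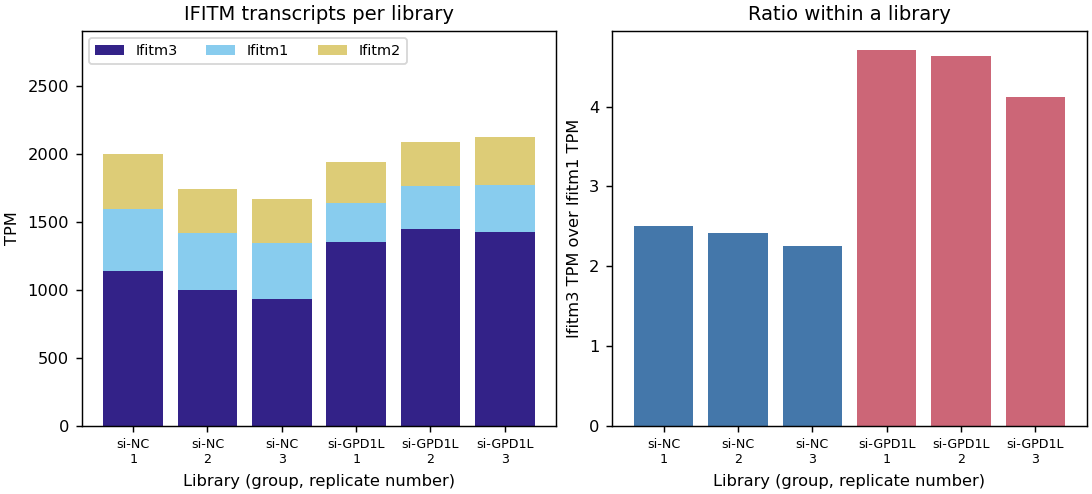
Left, TPM of Ifitm3, Ifitm1 and Ifitm2 stacked for each library; right, the ratio of Ifitm3 to Ifitm1 TPM in each library. The stacks overlap in height between the groups, whereas the ratio runs from 2.26 to 2.51 in si-NC and from 4.12 to 4.71 in si-GPD1L.

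Samhd1, the deoxynucleotide hydrolase (NCBI gene 311580, chr3:153210829-153250705, minus strand), rose. Its normalized counts were 80.1, 71.9 and 88.8 in si-NC and 163.5, 201.8 and 182.7 in si-GPD1L. The lowest si-GPD1L library was well above the highest si-NC library, and the fold change was 2.27 (95% confidence interval 1.82 to 2.84, adjusted p = 0.000294). Genes of deoxynucleotide synthesis and salvage, the pool on which SAMHD1 acts, were all below the threshold. Of 15 such genes, all tested, none was called higher or lower by edgeR's quasi-likelihood test (2 at an unadjusted p under 0.05, Tk1 and Dctd, both higher, 1 by edgeR's exact test and 0 by DESeq2), and their log2 fold changes ran from -0.21 for Dtymk (thymidylate kinase) to 0.31 for Tk1 (thymidine kinase, adjusted p = 0.0631), with a median of 0.032.

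Isg20, the exonuclease (NCBI gene 293052, chr1:140602553-140608892, plus strand), had the lowest counts of the 9 genes in si-NC. Its normalized counts were 37.6, 36.0 and 33.2 in si-NC and 113.4, 133.6 and 105.8 in si-GPD1L. The groups were separate, and the fold change was 3.30 (95% confidence interval 2.51 to 4.35, adjusted p = 6.89e-05). Of 11 related exonucleases, 10 were tested, 3 were higher and none was lower, with a median log2 fold change of 0.046. The 3 were Trex1, which degrades cytosolic DNA (0.76 ± 0.13 SE, adjusted p = 0.00359), Xrn1, which degrades decapped RNA (0.35, adjusted p = 0.0134), and Aen, a nuclease induced by p53 (0.37, adjusted p = 0.0477). Aen lies 8804 bases from Isg20.

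Zc3hav1, the gene of ZAP (NCBI gene 252832, chr4:66012111-66062160, minus strand), rose by less. It had normalized counts of 1420.6, 1470.7 and 1469.8 in si-NC and 2327.7, 2610.1 and 2714.8 in si-GPD1L. The si-NC libraries were within a narrow band and all si-GPD1L libraries lay above it, for a fold change of 1.76 (95% confidence interval 1.57 to 1.96, adjusted p = 1.59e-05). Of 12 genes for ZAP partners and relatives found in the table, all tested, 3 were higher and none was lower, with a median log2 fold change of 0.099. Parp12, a ZAP relative that also binds RNA, had a mean of 250 normalized counts in si-NC and 1186 in si-GPD1L (log2 fold change 2.24, adjusted p = 3.19e-09). Trim25, the ubiquitin ligase that ZAP needs for its action, rose from 411 to 1403 (1.77, adjusted p = 1.21e-06), and N4bp1, an antiviral RNA-cleaving protein, rose by a log2 fold change of 0.40 (adjusted p = 0.00565). Zc3hav1l, a related gene 8661 bases away, had a log2 fold change of -0.038.

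The 2 annotated transcripts of Zc3hav1 differ in length, 4956 and 3283 bases. The counts of the shorter were 47.7%, 50.4% and 54.5% of those of the longer in si-NC and 53.7%, 57.5% and 55.3% in si-GPD1L, so the groups overlapped, and both transcripts rose (log2 fold changes 0.78 and 0.91). Across the transcript table the 9 genes had 15 transcripts, all tested, of which 11 were higher and 2 lower, against 3.58% of the 37822 transcripts tested called higher and 2.3% called lower. The lower ones were both of Ifitm1, and the transcripts of Ifitm2 and Ifitm3 were not called (adjusted p = 0.332 and 0.0753). Transcript counts of a library summed to more than its gene counts, so reads shared by isoforms may stand in several transcripts.

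Sp110 and Pml, the nuclear body genes, rose by similar folds. Sp110 (NCBI gene 301570, chr9:92593909-92618867, minus strand) had normalized counts of 485.4, 487.8 and 446.0 in si-NC and 1709.5, 1725.8 and 1540.1 in si-GPD1L, a fold change of 3.51 (95% confidence interval 3.11 to 3.95, adjusted p = 6.42e-09). Pml (NCBI gene 315713, chr8:63002515-63034310, minus strand) had normalized counts of 792.9, 947.0 and 945.7 in si-NC and 2822.7, 3235.4 and 2730.8 in si-GPD1L, a fold change of 3.27 (95% confidence interval 2.85 to 3.76, adjusted p = 5.45e-08). In both genes all si-GPD1L libraries were well above all si-NC libraries. Of 15 other genes of PML bodies, all tested, 3 were higher and none was lower, with a median log2 fold change of 0.046. Sp100, a core component of the bodies, had a mean of 223 normalized counts in si-NC and 764 in si-GPD1L (log2 fold change 1.78, adjusted p = 4.48e-08). Daxx, a histone chaperone of the bodies, rose by 0.40 (adjusted p = 0.0249) and Sp140, another member of the SP100 family, by 0.41 (adjusted p = 0.0232). Sp140 overlaps Sp110 on the opposite strand, and whether the counting used strand is not given, so reads of the overlapping stretch cannot be told apart. Sumo2, one of the modifiers that link PML body proteins, had a log2 fold change of -0.23 (adjusted p = 0.169).

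**Figure D3:**
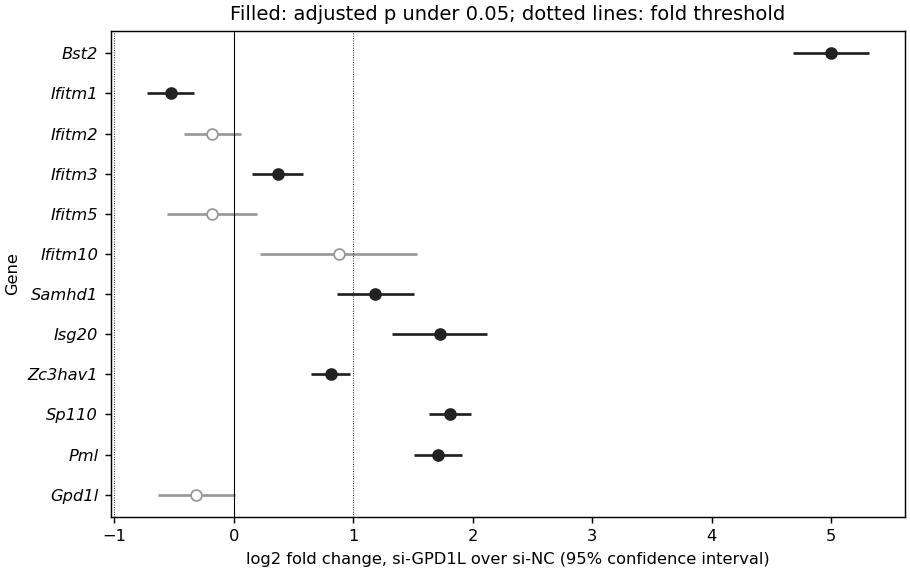
log2 fold change of si-GPD1L over si-NC with its 95% confidence interval for the 9 genes, Ifitm5, Ifitm10 and Gpd1l, with filled points for an adjusted p under 0.05 and dotted lines at a log2 fold change of 1 in either direction. Bst2 lies at 4.99, Sp110, Isg20 and Pml lie between 1.71 and 1.81, and Ifitm1 lies at -0.53.

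Per length, the 9 genes spanned a wide range. In si-NC, Ifitm3 was highest at 1024 ± 106 TPM (SD, n = 3), followed by Ifitm1 at 427 ± 23.6 and Ifitm2 at 349 ± 45.7. Zc3hav1 (33.3 ± 2.23 TPM) and Sp110 (32.1 ± 1.45 TPM) came next and overlapped each other. Pml (21.1 ± 3.02 TPM), Bst2 (9.89 ± 1.59 TPM), Isg20 (5.73 ± 0.19 TPM) and Samhd1 (4.28 ± 0.54 TPM) followed, each with a range that did not overlap that of its neighbour. Bst2 thus stood below 6 of the other genes, and 42.2% of all genes tested had a lower level.

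In si-GPD1L, Ifitm3 was again highest, at 1408 ± 53.3 TPM. Bst2 came next at 334 ± 55.1 TPM, and its range, 273 to 380 TPM, overlapped those of Ifitm2 (328 ± 23.1 TPM) and Ifitm1 (315 ± 29.8 TPM), which also overlapped each other. It now lay above 97.3% of the genes tested. Sp110 (119 ± 7.32 TPM), Pml (72.8 ± 6.96 TPM) and Zc3hav1 (61.8 ± 5.16 TPM) were next with separate ranges, and the lowest were Isg20 (20.1 ± 2.53 TPM) and Samhd1 (10.3 ± 1.14 TPM). Leaving out the IFITM genes, the other 6 genes summed to 106 ± 7.21 TPM in si-NC and 619 ± 67.0 TPM in si-GPD1L, and the mean share of Bst2 in that sum was 9.29% and 53.8%.

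**Figure D4:**
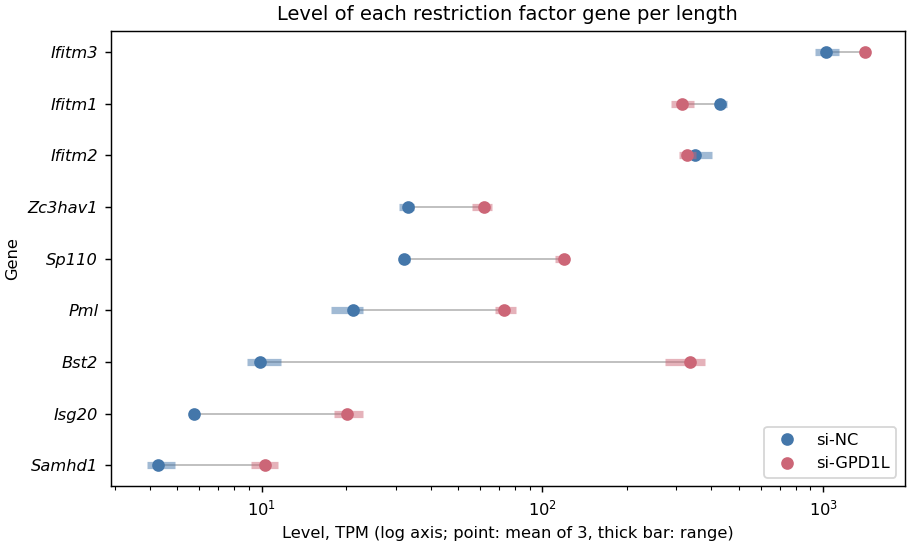
Level in TPM (log axis) of each gene in si-NC (blue) and si-GPD1L (red), with a point at the mean of 3 libraries and a thick bar over their range. Bst2 moves from 9.89 to 334 TPM, next to Ifitm1 and Ifitm2, while Samhd1 stays lowest in both groups.

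Of 28 other restriction factor genes in the table, 25 were tested, and 13 were higher and none lower, with a median log2 fold change of 0.56. The smallest adjusted p-values were those of Lgals3bp, a secreted glycoprotein (1.89, adjusted p = 5.17e-09), Znfx1, a sensor of viral RNA (2.13, adjusted p = 1.06e-08), Ly6e, a surface protein that hinders coronavirus fusion (1.55, adjusted p = 1.26e-07), and Adar, which edits double-stranded RNA (1.66, adjusted p = 3.61e-07). Of 16 genes of interferon signalling, 15 were tested, and 8 were higher and none lower, with a median log2 fold change of 0.32. Usp18, which dampens the interferon receptor, had a log2 fold change of 8.37 (adjusted p = 1.73e-10) and Irf7, which drives interferon genes, one of 5.87 (adjusted p = 1.14e-10). Usp18 was near the floor in si-NC, with a mean of 3.31 ± 3.10 normalized counts (SD, n = 3) against 1153 in si-GPD1L. The size of its fold change is therefore uncertain. Stat2 (2.18, adjusted p = 8.77e-10) and Irf9 (1.81, adjusted p = 5.17e-09), components of the factor that binds the ISRE, rose as well. Ifnb1, the interferon beta gene, had 0 counts in all 6 libraries, where a count of 0 allows up to 3. Over the 8 lists together, 30 of 100 tested genes were higher and none was lower, beside 4.03% and 2.33% of all genes. At an unadjusted p under 0.05, 33 were higher and 5 lower, and after adjustment DESeq2 called 30 and 0 and edgeR's exact test 32 and 1. The lists were drawn up with results of these data known.

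**Figure D5:**
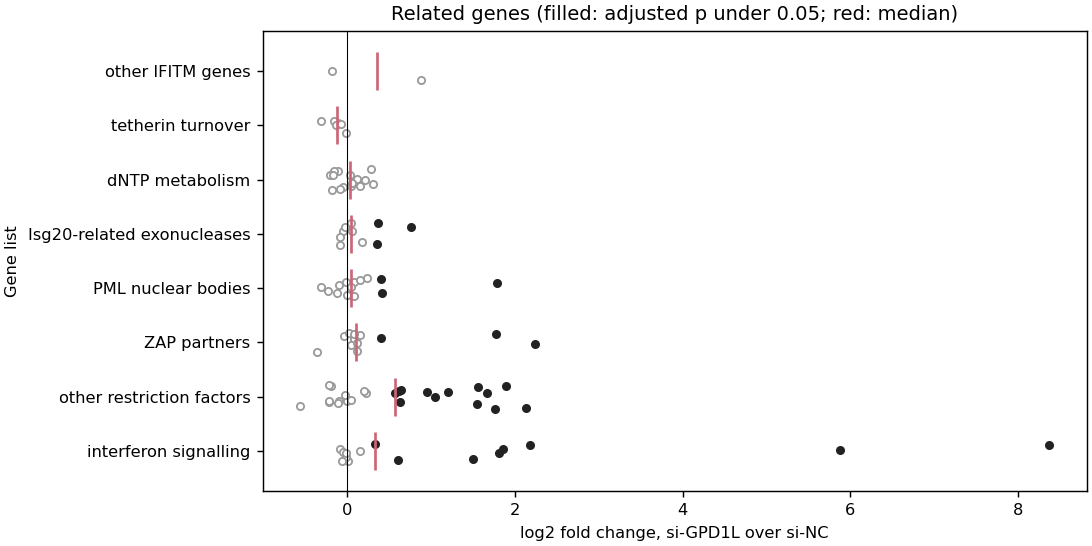
log2 fold change of each tested gene in the 8 lists of related genes, with filled points for an adjusted p under 0.05 and a red line at the list median. The filled points all lie to the right of 0; the medians run from -0.12 for tetherin turnover to 0.56 for the other restriction factors.

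Within 50 kb of a member lay 33 genes, of which 16 were tested, 4 were higher and none was lower, beside 4.03% and 2.33% of all genes tested (1 neighbour was lower at an unadjusted p under 0.05, 0 by DESeq2 and 1 by edgeR's exact test). Besides Aen and Sp140, these were Plvap, an endothelial gene 20113 bases from Bst2 (mean normalized counts 40.2 and 110, log2 fold change 1.44 ± 0.18 SE, adjusted p = 0.000351), and RGD1306271, 49389 bases from Zc3hav1 (0.74, adjusted p = 0.00746). Bst2 also had Mvb12a, Gtpbp3 and Ano8 within that distance, with log2 fold changes of 0.044, 0.12 and -0.25, none of them called.

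The genes whose log2 CPM values (counts scaled to library size) over the 6 libraries were most like the mean standardized profile of the 9 genes were B2m, the light chain of MHC class I (Pearson r = 0.999), the restriction factor Trim5 (0.999), Trex1 (0.997), Psmf1, a proteasome regulator (0.997), and Ehd4, an endocytic protein (0.997). All 6 points share the contrast between the groups, so r is a description only. B2m had a log2 fold change of 0.84 and Ehd4 one of 0.19 (adjusted p = 0.123), so the likeness was one of shape and not of size.

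Markers of other cell types were read beside these genes. Among all genes tested, 4.03% were called higher and 2.33% lower by edgeR's quasi-likelihood test. Of 15 tested macrophage markers, none was called by edgeR's quasi-likelihood test (1 at an unadjusted p under 0.05, Cd163, 0 by DESeq2 and 1 by edgeR's exact test). The normalized counts of all 16 listed summed to 3162 to 3428 for si-NC and 2691 to 3900 for si-GPD1L. Of 12 lymphoid and plasmacytoid markers, 2 were tested with none called, and 9, among them Cd3e, Ms4a1 and Siglech, had at most 3 counts in every library. Of 11 tested endothelial markers, 4 were higher (Plvap, Cdh5, Pecam1 and Tie1) and none lower. The log2 fold changes of the 11 ran from 0.12 for Flt1 to 1.44 for Plvap, with a median of 0.56. At an unadjusted p under 0.05, 7 were higher and 0 lower. After adjustment DESeq2 called 4 higher and edgeR's exact test 5, and both called 0 lower. The normalized counts of all 12 listed summed to 10429 to 12547 for si-NC and 13511 to 13942 for si-GPD1L. Most of that sum was Eng, with means of 9391 and 10962. Eng was not called by edgeR's quasi-likelihood test (adjusted p = 0.126). Among 12 tested fibroblast markers, Dcn, Lum and Fap were lower and none higher. At an unadjusted p under 0.05, 4 were lower and 2 higher, the latter Col1a1 and Col1a2. DESeq2 and edgeR's exact test each called 3 lower and 0 higher after adjustment. Of 12 tested cardiomyocyte markers 1 was lower, Pln, and of 10 of smooth muscle and pericytes 2 were higher, Cspg4 and Mcam, and 1 lower, Des, by edgeR's quasi-likelihood test. DESeq2 called 2 cardiomyocyte markers lower and edgeR's exact test 1, and both called 3 smooth muscle and pericyte markers lower and 2 higher. Cardiomyocyte transcripts were present in both groups. Mean levels of those markers ran from 2.66 TPM for Ttn to 1203 TPM for Nppa in si-NC, and from 3.59 to 1099 TPM for the same genes in si-GPD1L. The part of the endothelial and fibroblast differences in the values of the restriction factor genes was not tested.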

How the data were processed

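Per the labels, polyadenylated RNA was sequenced from 3 si-NC and 3 si-GPD1L libraries of rat atrial fibroblasts. The authors deposited whole-number counts and TPM values for 40154 genes and 55760 transcripts. The submitters' processing notes name bcl2fastq, HISAT2 2.1.0, HTSeq 0.12.4 and the build rn6, and whether the counting used strand is not given in the sources used here. The deposited gene TPM equal the counts per base of gene length, rescaled to the same total in each library. The authors' tables of their own comparison (fold changes, p-values) and of enriched terms were not used.

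Gene counts were filtered by filterByExpr, normalized by TMM and tested with the quasi-likelihood F test of edgeR 4.0.16 in R 4.3.3, with Benjamini-Hochberg adjustment over all 14852 genes. Calls were made at an adjusted p under 0.05 and, following the study's methods, also with an absolute log2 fold change over 1. The SE is the log2 fold change divided by the root of F. TPM values were described and, for 1 ratio, compared by exact permutation. Transcript counts were fitted in the same way. The procedure was run on simulated counts drawn with a common dispersion (spread beyond counting error) for all genes. They held no library that stood apart, as si-NC replicate 1 did, so that run does not cover this feature. Alternatives were DESeq2 1.42.0, other scalings, the edgeR exact test, other filters, a replicate block and each library left out. Confidence intervals cover the spread between libraries, and the limit of 3 at a count of 0 covers counting error only.

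The 9 genes, the lists and the markers were chosen with earlier results of these data known. Named genes were the 9 genes, Gpd1l, the other Ifitm genes, up to 4 genes a list by adjusted p, genes within 50 kb of a member and the 5 most alike in profile. Ifnb1 and the cell type markers that the text names were singled out after their values were seen. Of 110 list symbols, 109 were in the table. Promoters came from RefSeq (GRCr8) and were searched for the letters given in the text.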

Additional observations from a re-analysis of the deposited data

How the results depend on the processing

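The number of the 9 genes with an adjusted p under 0.05 was 8, and 7 to 8 over the 13 alternatives. Ifitm3 was the gene lost, with upper-quartile scaling (adjusted p = 0.0622) and without any library other than si-NC replicate 1. The number past both thresholds was 5 in all 13. Ifitm1 stayed lower and called (log2 fold change -0.60 to -0.44), Ifitm2 was not called under any of them, and Bst2 ran from 4.89 to 5.11. Gpd1l was not called under any of the 13 (-0.50 to -0.21, adjusted p 0.0604 to 0.579). Of the genes in the 8 lists, 24 to 34 were called, and lower ones appeared with the exact test (1), without a filter (3) and without si-NC replicate 3 (2). The count of all genes with an adjusted p under 0.05 was less stable, 945 against 361 to 1929. The labels do not say whether the replicate numbers pair the libraries. The deviations of same-numbered libraries correlated at 0.0020, -0.0027 and 0.043, and those of differently numbered libraries at -0.045 to 0.046. With 3 libraries in a group, these correlations cannot decide it. With a replicate block, 8 of the 9 genes were called, 5 of them past both thresholds, as were 30 genes of the lists, and the log2 fold change of Gpd1l was -0.32. Depth limits Isg20, Samhd1 and, in si-NC, Bst2 most, with 34 to 91 counts in an si-NC library.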
